A study of Drosophila melanogaster with 14 samples.

Results

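The X chromosome of *Drosophila* was examined for transposable element (TE) insertions that are absent from the dm6 reference genome. All records on chromosome X that start below 21 Mb were taken, which covers the gene-rich, euchromatic part of the chromosome and leaves out its repeat-rich proximal end. There were 2335 such records of 20426 in all 14 insertion lists. The rule used position alone, not the family, the supporting reads or the presence in a library. Another 1470 records lay further along the X, at or past 21 Mb, and were not described here.

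The insertions come from paired-end sequencing of genomic DNA of a single fly line in a w background. In this line a hairpin against *piwi* (sh-piwi) is driven by *traffic jam*-GAL4 (tj-GAL4), which acts in the somatic follicle cells of the ovary, and is held back by tubP-GAL80[ts], a temperature-sensitive repressor of GAL4. All groups carried every one of these transgenes and differed by temperature. The piwi-sKD (somatic knockdown) libraries were 12 single adult flies, read at 125 nt, and 1 pool, both labelled as kept at 25°C for the last 5 days. The no-KD library was 1 pool of embryos of 3 to 17 h, kept at 20°C and read at 100 nt. The label of the piwi-sKD pool names adult flies, but by the study's methods it held embryos, laid in the second generation after the knockdown, to which the single flies belong too. Pools and flies were sequenced by different centres, and the sex of the flies is not labelled.

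Insertions fall into 3 classes. LTR retrotransposons, called endogenous retroviruses (ERVs) in the study, copy themselves through RNA and carry long terminal repeats, non-LTR retrotransposons also move through RNA but lack these repeats, and DNA transposons move as DNA. Piwi, loaded with piRNAs, silences TEs in the nucleus. In follicle cells it acts mainly on ERVs such as ZAM and gypsy, some of which can pass from these cells into the oocyte. The X is carried in a single copy by males and in a pair by females.

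A single fly had between 68 and 172 insertions on the euchromatic X, with a median of 106.5 and a mean of 112.7 ± 32.5 (SD, n = 12). The piwi-sKD pool had 510 and the no-KD pool 473. This was 12.3% ± 0.944 of all insertions listed for a fly (SD, n = 12), 10.01% for the piwi-sKD pool, against 10.9% for the no-KD pool. Over their whole lists the flies held 1774 to 5901 supporting reads, the piwi-sKD pool 47733 and the no-KD pool 38580. The number of insertions listed in a fly therefore rests on far fewer reads than in a pool, and an insertion missing from a fly's list may have gone undetected at that depth. On the Y chromosome, the lists of the flies held 8 to 19 records, those of the piwi-sKD and no-KD pools 351 and 302.

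The euchromatic parts of 3 autosome arms served as the comparison. These were the first 21 Mb of 2L, the first 22 Mb of 3L and the 26 Mb of 3R from 6 Mb to 32 Mb, 69 Mb in all, with 6863 records. In the flies the densities of X and arms differed by less than the spread between flies. The X had 5.37 ± 1.55 insertions per Mb and the arms 5.26 ± 1.30 (SD, n = 12 each). The mean difference, X minus arms, was 0.107 per Mb, and the X was denser in 7 flies and less dense in 5 (paired exact permutation test, two-sided, p = 0.552, also 0.552 after Benjamini-Hochberg adjustment over 3 paired comparisons). The ratio of X to arm density lay between 0.846 in fly 4 and 1.14 in fly 3. In the pools the X was denser than the arms, with 24.3 against 19.3 insertions per Mb in the piwi-sKD pool (ratio 1.26) and 22.5 against 17.1 in the no-KD pool (ratio 1.32). Both pool ratios lay above those of all 12 flies, a difference that was not tested, as each pool is 1 library. The sign of the difference in flies depended on which arm was used, since the X had a difference of -0.643 insertions per Mb from 2L alone (adjusted p = 0.00586) and of 0.705 from 3R alone (adjusted p = 0.00659, paired exact permutation tests).

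What set the X apart in the flies was how few of its insertions were also found in the no-KD pool. An insertion was counted as shared when the no-KD pool listed an insertion, of any family, within 20 bp. The share was 44.6% ± 4.67 on the X and 58.4% ± 1.20 on the arms (SD, n = 12 each). It was lower on the X in 12 of 12 flies, with a mean difference, X minus arms, of -13.8 percentage points (paired exact permutation test, two-sided, p = 4.88e-04, the smallest that 12 flies allow, adjusted p = 0.00146). The lowest X share was 39.4% in fly 11 and the highest 54.4% in fly 12, so that no fly reached on the X the lowest arm share, 56.6% in fly 6. With partners from the piwi-sKD pool the shares were 50.1% ± 7.13 on the X and 61.3% ± 2.72 on the arms (SD, n = 12 each). When whole loci of a family were compared in place of positions, 78.2% ± 5.58 of the X loci of a fly and 88.7% ± 2.42 of its arm loci were present in the no-KD pool (SD, n = 12 each). The size of the difference depended on the window, being -5.90 points with overlapping intervals only (0 bp) and -18.4 points with 100 bp. Matched by locus, it was -10.4 points (adjusted p = 0.00146), again in the paired exact permutation test and chosen after the data were seen.

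**Figure D1:**
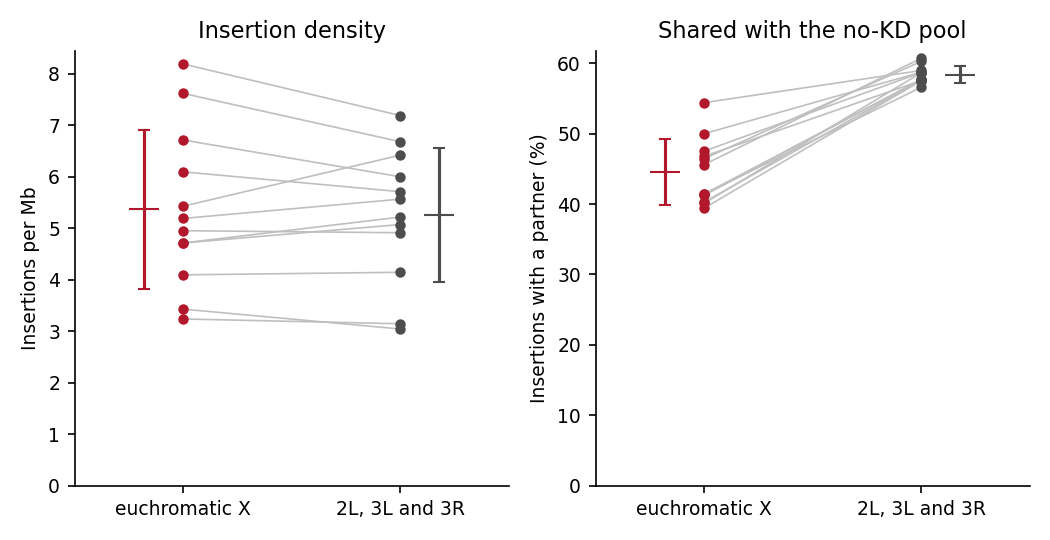
Insertions per Mb (left) and the percentage of insertions with a no-KD pool partner within 20 bp (right) in each of the 12 single flies, on the euchromatic X and on 2L, 3L and 3R. Points are flies, grey lines join the values of a fly, and bars beside them give mean ± SD. Densities overlap (5.37 ± 1.55 against 5.26 ± 1.30 per Mb), whereas the shared percentage was lower on the X in 12 of 12 flies.

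Supporting reads differed between X and arms in the pools, and less so in the flies. The median support of an X insertion was 5 reads in the piwi-sKD pool, against 4 in the no-KD pool, while arm insertions had 7 in both. The mean was 8.77 reads on the X and 12.9 on the arms in the piwi-sKD pool, and 7.90 and 11.7 in the no-KD pool. In the flies the means ran the other way, with 3.89 ± 0.374 reads per X insertion and 3.56 ± 0.444 per arm insertion (SD, n = 12 each), the X being higher in 11 of 12 flies. The medians did not, as they averaged 2.58 ± 0.515 reads on the X and 2.75 ± 0.452 on the arms (SD, n = 12 each) and were higher on the X in 1 fly only. At the same time 48.7% ± 5.32 of the X insertions of a fly stood at the minimum of 2 reads, against 44.7% ± 6.86 on the arms (SD, n = 12 each). This share was higher on the X in 9 flies and lower in 3, with p = 0.0396 in the paired exact permutation test and 0.0593 after adjustment, and so did not pass 0.05. X insertions in flies thus had a few sites of high support, up to between 11 and 56 reads per fly, beside many at the minimum. The numbers of X copies in the pools and flies are not labelled, and their part in these values was not tested.

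Records of the same family that lay within 500 bp of each other, in any of the 14 libraries, were joined into loci, since an insertion is often listed at slightly different positions in different libraries. The 2335 X records gave 494 loci, or 23.5 per Mb, and the 6863 arm records gave 1163, or 16.9 per Mb. An X locus comprised a median of 2.5 records and at most 46, and 192 loci (38.9%) consisted of 1 record only. Of the X loci, 324 were found in the piwi-sKD pool, 287 in the no-KD pool and 61 to 152 in a fly.

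Loci were not spread evenly along the X. The first 1 Mb bin at the tip had 58 loci, while the other 20 bins had 14 to 33 with a median of 20.5. The 69 bins of the arms had 6 to 47 with a median of 16. In the tip bin 37 loci were of non-LTR elements, 12 of LTR elements and 9 of DNA elements. The next densest bin, from 10 to 11 Mb, had 33 loci, 13 of them non-LTR, and the sparsest, from 4 to 5 Mb, had 14.

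**Figure D2:**
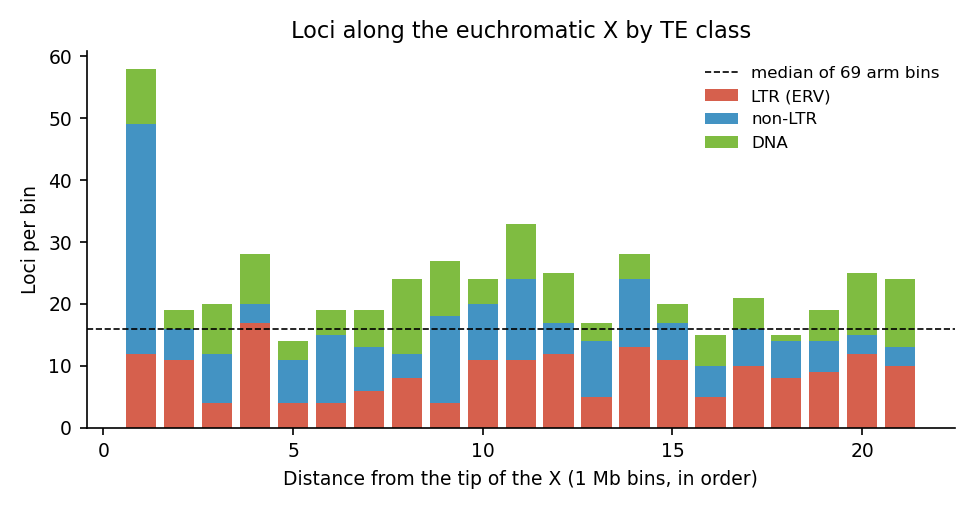
Number of loci in each 1 Mb bin of the euchromatic X, in order from the tip, with colours for the TE class and a dashed line at the median of the 69 arm bins (16 loci). The first bin held 58 loci, mostly of non-LTR elements, and the other 20 bins held 14 to 33.

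TAHRE and HeT-A, which had 23 of the 58 loci at the tip, are non-LTR retrotransposons that insert at chromosome ends and, with a related element, form the telomeres of *Drosophila* in place of telomerase-made repeats. TAHRE had 13 loci on the X and 2 on the arms, and HeT-A had 10 and 1. All 23 of these X loci lay between positions 5716 and 116822, and none fell in an annotated gene. Without them the tip bin would have had 35 loci. Both families were often listed at the same site, as 8 of the 10 HeT-A loci had a TAHRE locus within 20 bp. The telomeric loci were supported by many reads in both pools, giving 15.3% of all X reads in the piwi-sKD pool, against 17.2% in the no-KD pool, with 34 and 43 listed insertions. The most widespread of them, a TAHRE locus at 60987 to 62771, was present in all 14 libraries, with 115 reads in the piwi-sKD pool, 97 in the no-KD pool and 9 to 35 per fly (median 19.5). By contrast the TAHRE locus at 63523 to 63809 had 189 and 174 reads in the piwi-sKD and no-KD pools, yet was listed in 6 flies only, with at most 9 reads. Both loci had similar numbers of reads in the piwi-sKD and no-KD pools, not corrected for depth. The end of 3R past 32 Mb, outside the compared part, held 0 TAHRE or HeT-A records.

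On the X 65 families had a locus, against 80 on the arms, and 10 families made up 287 of the 494 X loci (58.1%). The share of each family among X loci and among arm loci was compared for the 54 families with at least 5 loci in all (two-sided Fisher's exact test, adjusted by Benjamini-Hochberg over the 54). Of these, 5 families (9.26%) passed an adjusted p of 0.05, 4 of them (7.41%) with a higher share on the X and 1 (1.85%) with a lower one, and 11 (20.4%) had an unadjusted p under 0.05. Joining records only within 20 bp gave 21 calls, and leaving out the tips of X and arms gave 0. Loci of a family in 1 line are not independent events, so these tests compare the sites of this line and not X chromosomes at large.

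TAHRE was 21.4 times as dense on the X as on the arms (adjusted p = 3.95e-04) and HeT-A 32.9 times (adjusted p = 0.00113), with wide exact 95% intervals of 4.84 to 195 and 4.67 to 1426. As 8 of the 10 HeT-A loci on the X lay within 20 bp of a TAHRE locus, these calls are not independent. Only 3 HeT-A loci on the X were in any fly, and the family was not tested in the 12 flies only. INE-1, a short and very abundant non-autonomous element counted here with the DNA class, had 24 loci on the X and 22 on the arms, a density ratio of 3.58 (1.93 to 6.70, adjusted p = 0.0210). Of the 24 loci, 11 lay from 19 Mb onwards, and with the X ended at 20 Mb the call was lost (adjusted p = 0.232). Only 46 and 36 reads supported INE-1 on the X in the piwi-sKD and no-KD pools, and asking for 3 reads ended the call as well (odds ratio 1.64 against 2.65, adjusted p = 0.689), as did the pools alone (2.07, adjusted p = 0.246). FB, the foldback DNA element with long inverted repeats, had 28 loci on the X and 31 on the arms, a ratio of 2.97 (1.72 to 5.11, adjusted p = 0.0389). The FB call was lost at about the same odds ratio with at least 3 reads (2.26 against 2.19, adjusted p = 0.0586) and without the tips (2.29, adjusted p = 0.0613), and at a lower one in the 12 flies only (1.66, adjusted p = 0.463). The F-element, a LINE-like non-LTR element, was the only family with a lower share on the X that passed the test, with 3 loci against 38 (ratio 0.259, 0.0512 to 0.818, adjusted p = 0.0140, and 0.0613 without the tips). Doc and Rt1b, also non-LTR elements, had the next lowest ratios among families with at least 10 loci, 0.469 (5 against 35 loci) and 0.548 (3 against 18), and neither passed the test (adjusted p = 0.108 and 0.543).

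**Figure D3:**
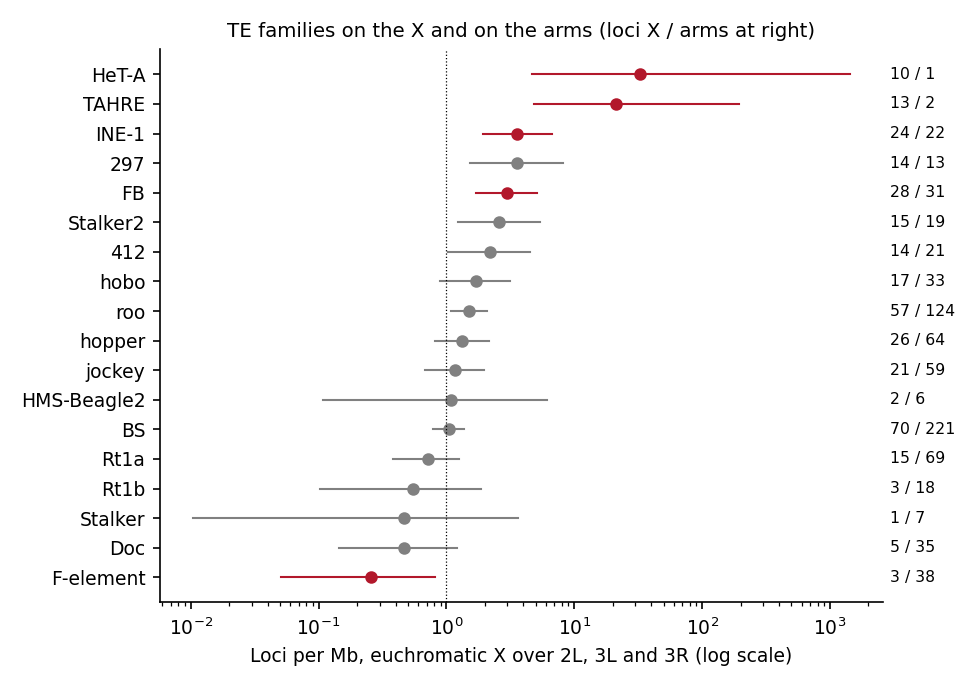
Loci per Mb on the euchromatic X over loci per Mb on 2L, 3L and 3R for the families named in the text, on a log axis, with exact 95% intervals and the numbers of loci (X / arms) at the right. Red marks an adjusted p under 0.05, and the dotted line an equal density. HeT-A, TAHRE, INE-1 and FB lie above 1 and the F-element below it.

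The families with most X loci did not all behave alike in the 14 libraries. BS, a non-LTR element, had the most loci, 70 on the X and 221 on the arms (ratio 1.04), but few of them recurred. Of 45 X loci of BS in either pool, 7 were in both (15.6%, Wilson 95% interval 7.75 to 28.8), and 59.1% of the BS records of the pools on the X had 2 reads. On the arms 14 of 186 were in both pools (7.53%, 4.54 to 12.2). roo, the most numerous ERV of the line on the X, had 57 loci there and 124 on the arms (ratio 1.51, adjusted p = 0.963 for its share of loci). Its loci were mostly shared, 40 of 44 between the pools (90.9%, 78.8 to 96.4). The intervals of BS and roo do not overlap, and the comparison between them was chosen after their values were seen.

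The other frequent families were hopper (26 loci), jockey (21), hobo (17), Stalker2 and Rt1a (15 each) and Dm297 and Dm412 (14 each), which the lists name by their numbers alone. None passed the family test, although Dm297 had 14 loci against 13 on the arms (ratio 3.54, adjusted p = 0.118). In the pools only, where 7 families passed in all, Dm297 had an odds ratio of 3.13 (adjusted p = 0.0496), Rt1a of 0.398 (0.0496) and BS of 0.592 (0.0271). With joining within 20 bp Dm297 (2.25, adjusted p = 0.0123), Rt1a (0.409, 0.00324) and hobo (2.22, 1.91e-04) passed as well. hobo, a DNA transposon of the hAT group, had 15 of its 15 X loci of either pool in both, and jockey, a non-LTR element, 18 of 19. hopper, another DNA element, had 8 of 16 in both. On the arms the counts were 23 of 23 for hobo, 50 of 53 for jockey and 11 of 48 for hopper. Among the flies, FB gave 7 to 15 records per fly (median 12), roo 5 to 19 (11.5), jockey 6 to 12 (8) and hobo 3 to 12 (7.5), so that these families were listed on the X in every fly. By comparison Stalker2, Rt1a and Dm297 were listed 0 to 5 times.

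By class, non-LTR elements had a smaller share of loci on the X than on the arms, 35.8% (177 of 494) against 46.4% (540 of 1163), with an odds ratio of 0.644 (Fisher's exact test, adjusted p over the 3 classes = 2.23e-04). DNA elements had a larger one, 26.3% (130) against 20.2% (235), with an odds ratio of 1.41 (adjusted p = 0.00981). LTR elements had 37.9% (187) against 33.4% (388), an odds ratio of 1.22 (adjusted p = 0.0806). In density the classes differed unequally, as the X had 6.19 DNA loci per Mb against 3.41 on the arms, 8.90 LTR loci against 5.62, and 8.43 non-LTR loci against 7.83. The higher non-LTR density rested on the 23 TAHRE and HeT-A loci at the tip. Without them 154 non-LTR loci remained on the X, fewer per Mb than on the arms. When at least 3 reads were asked for, neither the non-LTR nor the DNA call was kept (adjusted p = 0.0916 for both).

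The same direction held for DNA elements when the insertions of each fly were counted. Of the X insertions of a fly 39.5% ± 2.80 were of DNA elements, against 22.5% ± 1.496 on the arms (SD, n = 12 each), and the share was higher on the X in 12 of 12 flies. LTR elements made up 33.1% ± 2.99 on the X and 41.03% ± 2.81 on the arms, and non-LTR elements 27.4% ± 2.42 and 36.4% ± 2.53 (SD, n = 12 each), both higher on the X in 0 of 12 flies. For LTR elements the flies thus ran against the loci of all libraries. The pools did not show this, with 42.0% LTR insertions on the X against 37.4% on the arms in the piwi-sKD pool and 42.5% against 41.3% in the no-KD pool. DNA elements made up 27.6% of X and 24.6% of arm insertions in the piwi-sKD pool, and 27.5% and 24.9% in the no-KD pool. Their gap was thus smaller in the pools than in the flies. Insertions were counted as listed, so a locus with several positions in a library weighed more than once. A hobo locus at 8295574, for instance, had 46 records over the 14 libraries, and flies of 1 line share such loci. The shares by fly were looked at after the classes of loci had been tested and are given without a test.

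Next, the sharing of X loci among the 14 libraries was described. Of the 494 X loci, 166 were in flies and both pools, 15 in flies and the piwi-sKD pool, 4 in flies and the no-KD pool and 125 in flies alone. A further 76 were in both pools but in no fly, 67 in the piwi-sKD pool alone and 41 in the no-KD pool alone. Several of these shares differed from those on the arms. Loci in flies and both pools made up 33.6% of X loci and 43.5% of arm loci (odds ratio 0.657, adjusted p = 4.58e-04). Loci in both pools and no fly made up 15.4% and 7.22% (odds ratio 2.34, adjusted p = 4.95e-06), and loci in flies alone 25.3% and 16.7% (odds ratio 1.69, adjusted p = 2.59e-04). The share in the piwi-sKD pool alone was lower on the X, 13.6% against 18.3% (odds ratio 0.6998, adjusted p = 0.0317), and the share in the no-KD pool alone was 8.30% against 10.7% (adjusted p = 0.213). These are Fisher's exact tests, two-sided, adjusted over the 7 exclusive patterns, and were added after the counts were seen. In all, 196 X loci (39.7%) were in 1 library only, against 476 arm loci (40.9%). By the study's methods, calls particular to a library can be false, from TE and genomic fragments joined during library preparation. Such calls were not told apart from insertions here.

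Among the 310 X loci found in a fly, 113 (36.5%, Wilson 95% interval 31.3 to 41.9) were found in 1 fly only, against 194 of 741 arm loci (26.2%, 23.1 to 29.5). The odds ratio was 1.62 (two-sided Fisher's exact test, p = 0.00105, adjusted p over 3 tests = 0.00157). With records joined within 20 bp it was 1.22 and no longer passed (adjusted p = 0.131). Of the 113 X loci, 21 were also in the no-KD pool, and of the 194 arm loci 43, so 1 fly is not the same as a new insertion. Loci found in that fly and in no other library numbered 0 to 19 per fly on the X, or 6.53% ± 4.07 of the X loci of a fly, and 3.43% ± 1.18 of its arm loci (SD, n = 12 each). At the other end, 11 X loci were in 12 of 12 flies, all of them also in both pools, and 90 were in at least 6 flies, 82 of these also in the no-KD pool. On the arms 42 loci were in 12 of 12 flies and 332 in at least 6, 315 of these also in the no-KD pool.

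**Figure D4:**
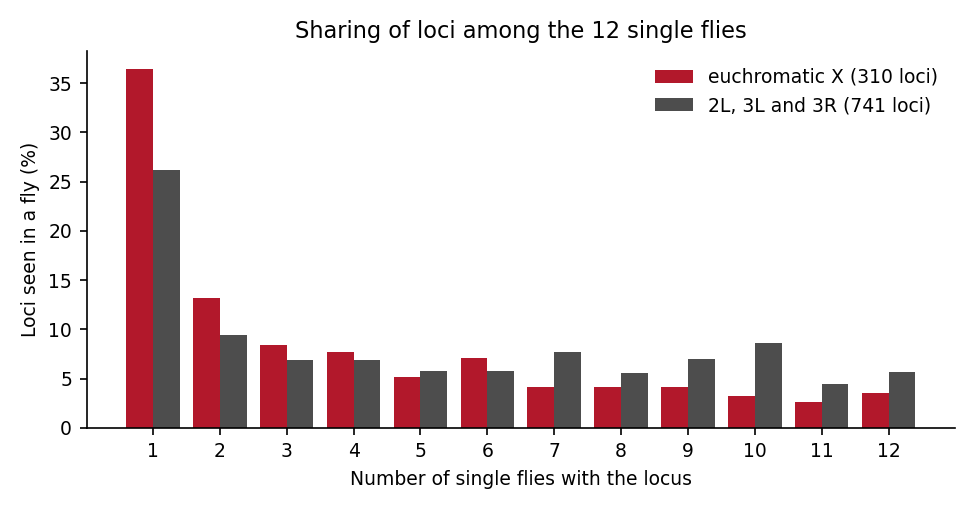
Percentage of the loci seen in a fly by the number of single flies, of 12, in which the locus was listed, on the euchromatic X (310 loci) and on 2L, 3L and 3R (741 loci). Loci of 1 fly were 36.5% on the X and 26.2% on the arms, and from 7 flies upwards each X bar lies below the arm bar.

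The comparison of the pools asks which listed insertions had no partner at nearly the same position in the other pool. On the X 269 of the 510 insertions of the piwi-sKD pool had no no-KD partner within 20 bp (52.7%, Wilson 95% interval 48.4 to 57.0), and 234 of the 473 insertions of the no-KD pool had no piwi-sKD partner (49.5%, 45.0 to 54.0). Their ratio was 1.15 (exact 95% interval 0.961 to 1.38). On the arms the counts were 640 and 490, a ratio of 1.31 (1.16 to 1.47). Counted by locus, fewer were particular to a pool. On the X, 82 of the 324 loci of the piwi-sKD pool were not in the no-KD pool. The other way it was 45 of 287. On the arms the locus counts were 244 of 834 and 135 of 725. With listed insertions taken as independent, no difference between X and arms was detected (odds ratio 0.880, two-sided Fisher's exact test, p = 0.236). Several listed insertions can come from 1 locus, so this p and the intervals above do not measure the error over loci. The piwi-sKD pool was also the deeper library, as given above, and neither the ratios nor the locus counts were corrected for depth. Specific X insertions had a median of 3 reads in both pools, against 8 for shared insertions in the piwi-sKD pool, against 7 in the no-KD pool. By family, the piwi-sKD-specific and no-KD-specific X insertions numbered 33 and 19 for BS, 33 and 31 for roo, 18 and 14 for FB, 19 and 17 for hobo and 15 and 17 for jockey. Such an insertion, told apart by position, can belong to a locus listed in both pools. Of X loci in either pool, 15 of 15 of hobo, 18 of 19 of jockey and 40 of 44 of roo were in both. For FB it was 22 of 26 and for BS 7 of 45. Each pool is 1 library, so these values compare the 2 libraries and not the conditions.

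Of 9 ERV families that the study followed after the knockdown, 5 had no locus on the euchromatic X, 3 had 1 or 2 and Dm412 had 14. ZAM, an envelope-carrying ERV of follicle cells, had 1 X locus, at position 10241011 inside *Hk*, which encodes a potassium channel subunit. It was listed in fly 11 alone, with 2 reads, and in neither pool. The study reports a new ZAM insertion at almost this position, in an exon of *Hk*, from its single flies. By genomic PCR the study found that insertion in the piwi-sKD offspring and not in their no-KD parents. No ZAM locus was listed on the compared arms. No gtwin, gypsy, gypsy8, Idefix or Circe locus was listed on the X, nor were there any of gtwin, gypsy8 or Circe on the compared arms. Idefix had 5 arm loci and gypsy 2. Dm412 had 14 X loci against 21 (ratio 2.19, adjusted p = 0.549), 9 of them in each pool. HMS-Beagle2 had 2 X loci against 6 and Stalker 1 against 7, with adjusted p of 1 and 0.861.

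Most loci in at least 6 flies were also in the no-KD pool, 82 of 90 on the X and 315 of 332 on the arms. Loci in at least 6 flies and in neither pool numbered 6 on the X and 9 on the arms. On the X, 2 loci were in at least 6 flies and in the piwi-sKD pool, but not in the no-KD pool. An FB locus at 19502627 to 19502709, in *Pfrx* and the overlapping *CG14200*, was in 11 flies with 2 to 11 reads, and had 5 reads in the piwi-sKD pool against 0 in the no-KD pool. A Burdock locus at 13989873 to 13989957 in *mamo*, which encodes a zinc finger protein, was in 7 flies with 2 to 7 reads and had 3 reads in the piwi-sKD pool against 0 in the no-KD pool. Both pool values are close to the minimum of 2 reads for listing. Other loci were found in flies but in neither pool, namely a Dm412 locus at 303491 and an INE-1 locus at 19192386 in 9 flies each, and mdg3 and hopper loci at 9575840 and 13489614 in 8 flies each, none above 5 reads in a fly. These were chosen after their values were seen. Of the loci of the no-KD pool alone, HeT-A at 62530 had most reads (5), and 7 loci followed with 3 reads each, among them HeT-A at 109757 and an I-element at 1129670. Of the piwi-sKD pool alone, likewise picked after the values were seen, FB at 9044799 (11 reads), BS at 12192489 (8 reads) and roo at 7125732 (7 reads) had the most. Loci were told apart by family, so that a locus of 1 library can lie at a site listed under another family in others. The HeT-A locus at 62530 lay within the TAHRE locus of all 14 libraries, and the BS locus at 12192489 within a jockey locus with 22 and 19 reads in the piwi-sKD and no-KD pools. A locus of another family lay within 20 bp for 8 of the 67 loci of the piwi-sKD pool alone, 5 of the 41 of the no-KD pool alone and 8 of the 125 of flies alone. Over all loci this held for 48 of 494 on the X (9.72%) and 124 of 1163 on the arms (10.7%), so it was not particular to loci of 1 library.

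Read support in pools and flies can be compared at the 11 loci found in all 14 libraries. The best supported was a hobo locus at 8295574 to 8296291 in *nAChRalpha3*, a nicotinic acetylcholine receptor subunit, with 17 to 62 reads per fly (median 46.5), 102 in the piwi-sKD pool, against 77 in the no-KD pool, 723 in all. It had 46 records, the most of any X locus, so that its 717 bp span was listed as several positions per library. An FB locus at 8929177 to 8929850 in *rdgA*, a diacylglycerol kinase gene, had 7 to 31 reads per fly (median 18) but only 8 in the piwi-sKD pool, against 11 in the no-KD pool. An mdg3 locus at 15012503 to 15012680 in *hiw* had 9 to 22 reads per fly (median 15), and 24 and 21 in the piwi-sKD and no-KD pools. Support in a pool was therefore not a fixed multiple of that in a fly.

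The P-element, a DNA transposon widely used as the vector of fly transgenes, had 3 loci on the X, and all of them lay within 3 kb of a classical marker gene. These genes, *y* (yellow), *w* (white) and *v* (vermilion), are common visible markers of transgenes. The set was chosen after the values were seen. The locus near *y*, at 353631 to 353774, lay 2735 bp from the gene and had 4 to 29 reads in 12 of 12 flies (median 9), 158 in the piwi-sKD pool, against 138 in the no-KD pool. The locus near *w*, at 2789954 to 2789996, lay 603 bp from the gene and had 2 to 15 reads in 12 of 12 flies (median 9), 133 in the piwi-sKD pool, against 131 in the no-KD pool. The locus near *v*, at 10923802 to 10923877, lay 95 bp from the gene and had 2 to 11 reads in the 10 flies that listed it, 45 in the piwi-sKD pool, against 42 in the no-KD pool. Each locus had nearly the same number of reads in both pools, not corrected for depth. The line carries transgenes, and whether these calls come from reads that join a transgene's marker to its P-element end was not tested.

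**Figure D5:**
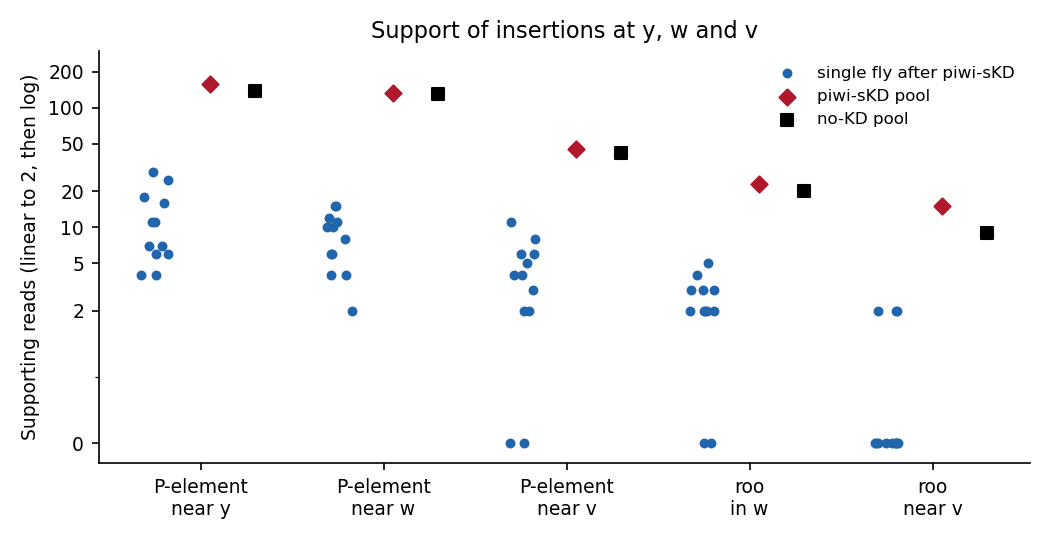
Supporting reads of the 3 P-element loci and of the 2 roo loci at *y*, *w* and *v*, on an axis that is linear up to 2 reads and logarithmic above. Blue points are the 12 single flies after piwi-sKD (0 where the locus was not listed), the diamond is the piwi-sKD pool and the square the no-KD pool. Both pools lie above all flies at each locus, from 158 and 138 reads for the P-element near *y* to 15 and 9 for roo near *v*.

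Gene spans overlapped 355 of the 494 X loci (71.9%, Wilson 95% interval 67.7 to 75.6) and 737 of 1163 arm loci (63.4%, 60.6 to 66.1), with an odds ratio of 1.48 (two-sided Fisher's exact test, adjusted p over 3 tests = 0.00157). The span runs from the first to the last base of a gene, so exons, introns and UTRs were not told apart. How much of the X and of the arms gene spans cover was not measured. The odds ratio is therefore not set against that coverage. Of 28 FB loci on the X 26 lay in a gene, and of 57 roo loci 43, of 70 BS loci 59 and of 24 INE-1 loci 12. On the X 228 of 2529 genes held a locus and 89 held at least 2. The gene with most was the non-coding *lncRNA:CR44999* with 11 loci in 149629 bp, 8 of them in a fly. *kirre*, a cell adhesion gene of 394149 bp, had 9, the small GTPase gene *RhoU* 8 in 62350 bp, the teneurin gene *Ten-a* 8, *Neto* 7 and *nAChRalpha3* 6. The loci of a gene came from several families, as in *RhoU*, where among others jockey, BS, Rt1a, mdg3, FB and Dm412 were listed. Gene length was not taken into account in these counts, and they were not tested. Per 10 kb of span, *RhoU* had 1.28 loci, *lncRNA:CR44999* 0.735 and *kirre* 0.228.

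Of 12 X genes known from classical mutations, 4 had a locus inside their span. In *w*, the eye pigment transporter, a roo locus at 2792468 to 2792858 was listed in 10 flies with 2 to 5 reads, with 23 reads in the piwi-sKD pool against 20 in the no-KD pool. In *sn*, which encodes the actin bundling protein fascin, an FB locus at 7972844 had 11 and 7 reads in the piwi-sKD and no-KD pools and was in no fly. *Hk* held the ZAM locus and a hobo locus at 10235155, in 5 flies and with 16 and 12 reads in the piwi-sKD and no-KD pools. *f* (forked), which encodes an actin-bundling protein of bristles, held 3 loci, of opus (5 flies), the F-element (4 flies) and BS (the piwi-sKD pool alone, 2 reads). No locus lay in *y*, *sc*, *per*, *N*, *ovo*, *ct*, *lz* or *v*.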

How the data were processed

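Genomic DNA of 12 single flies and 1 pool after piwi-sKD and of 1 no-KD pool was sequenced. The authors mapped reads to dm6 with BWA (0.7.5a-r405 for pools, 0.7.10-r789 for flies) and called non-reference insertions of 123 TE families with T-lex *de novo*. The deposited support of the piwi-sKD pool and the flies is a read count per insertion, at least 2. That of the no-KD pool is a signal which the authors had scaled, 100% of its values being whole multiples of 1.23, so reads were recovered by dividing by this factor. The study gives a higher coverage for the piwi-sKD pool than for the no-KD pool, and the recovered counts are not corrected for it. Coordinates may be off by 1 base, as their start at 0 or 1 is not stated. Groups came from the titles. Replicate flies share 1 line, so p-values measure the spread between these flies. Intervals cover counting error only, and those on pool insertions treat several listed positions of a locus as independent.

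Partners lay within 20 bp, whatever the family, and loci joined same-family records within 500 bp over all libraries. Classes were assigned by hand from family names. RefSeq's table of dm6 genes gave the gene spans. Flies were compared by paired exact permutation tests (X against arms within a fly, sign flips, two-sided) and loci or insertions by Fisher's exact tests, with Benjamini-Hochberg adjustment. Scripts were tested on simulated data. Named families were ZAM, gtwin, Dm412, HMS-Beagle2, gypsy, Stalker, gypsy8, Idefix and Circe, the 10 with most X loci (with ties), those past an adjusted p of 0.05, and the 3 highest and 3 lowest density ratios among families with at least 10 loci. Named loci were those of ZAM, gtwin, gypsy and Idefix, the best supported of all 14 libraries, those in at least 6 flies and the piwi-sKD but not the no-KD pool, and the best supported of the no-KD pool alone. Named genes were the 6 with most loci and 12 classical genes. The members and lists were chosen with earlier results of these data known. Alternatives were other windows, joining distances, read minimums, arms, borders, libraries and family minimums, the tips left out, matching within a family, and same-family insertions of a library within 500 bp counted once. Those without TAHRE and HeT-A and with matching by locus were added later, with the data seen. The remaining arm, the proximal X and the authors' subsamples of the piwi-sKD reads were not used here. Python 3.11.15, numpy 2.4.6, pandas 2.3.3, scipy 1.17.1 and matplotlib 3.10.9 were used.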

Additional observations from a re-analysis of the deposited data

How the results depend on the processing

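No paired analysis was possible because the groups of libraries share fewer than 2 replicate numbers, each pool being 1 library. This concerns piwi-sKD against no-KD libraries, whereas X and arms were compared within each fly. The lower share of X insertions with a no-KD partner kept its direction and call under 12 of 12 alternatives (differences of -18.6 to -5.90 percentage points, the smallest with a 0 bp window), and the gene-span share under 6 of 6 (odds ratios 1.29 to 1.77). The density difference between X and arms in flies (0.107 per Mb) turned to -0.192 with at least 3 reads, -0.378 without the tips, -0.643 against 2L alone and -0.195 without TAHRE and HeT-A, and was 0.705 against 3R alone. The difference in insertions at 2 reads passed against 2L alone (6.42 points) and with nearby insertions counted once (5.32 points). The odds ratio of pool-specific insertions (0.880) was 1.02 with at least 3 reads and 1.02 with a 500 bp window, none of them past the threshold. Called families numbered 3 with at least 3 reads, with the 12 flies only and without TAHRE and HeT-A, 0 without the tips and 21 with joining within 20 bp, against 5. The LTR odds ratio was 0.994 with at least 3 reads and 0.860 in the flies only, and it passed at 1.37 without the tips and 1.31 without TAHRE and HeT-A. The non-LTR odds ratio no longer passed at 0.757 with at least 3 reads and 0.790 in the flies only, nor the DNA odds ratio at 1.40 with at least 3 reads, nor that of loci in 1 fly at 1.22 with joining within 20 bp. Single families without a call turned direction as follows: BS had an odds ratio of 1.50 with at least 3 reads and 1.58 in the flies only, hopper 1.35 with at least 3 reads, 1.04 without the tips, 1.12 with joining within 20 bp, 1.57 in the flies only and 1.00 without TAHRE and HeT-A, Stalker2 0.667 with at least 3 reads, and roo 0.802 and hobo 0.970 in the flies only. The causes were not tested. Depth limits what can be said of a fly, where 48.7% of the X insertions stand at the minimum of 2 reads and absence from a list is not absence from the genome. Nor does listing prove an insertion, since the study's methods describe false calls particular to a library.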
